A study of Mus musculus with 4 samples.

Results

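The genes described here are 40 genes of G2 and mitosis, chosen by symbol from the 32288 features of the count tables, and all 40 were present. These genes and the other gene lists were chosen with earlier results of these data known. Counts set beside the share of all genes are therefore not independent of that choice. The 40 genes cover the CDK1 core and its regulators (4 genes), the kinetochore and its checkpoint (8), the chromosomal passenger complex and mitotic kinases (5), spindle and microtubule proteins (9), kinesin motors (4), chromosome structure (5), the anaphase-promoting complex and mitotic exit (3) and cytokinesis (2). They were followed in single cells of E14.5 mouse hindlimbs (femur and tibia), in which p21, the inhibitor of cyclin-dependent kinases encoded by Cdkn1a, was switched on in part of the cartilage. The p21 embryos (Pan-Cart-p21MOE) carried Gli1CreER/+, Col2a1-rtTA, TigreTRE-p21/+ and R26LSL-tdT/+. The control embryos lacked Col2a1-rtTA only, so they also carried the silent p21 transgene, the Cre and the reporter. Both had doxycycline from E12.5 and tamoxifen at E13.5 at 120 µg per g. Col2a1-rtTA drives p21 in cells that use the Col2a1 promoter, in a mosaic, and the reporter labels the descendants of cells that expressed Gli1 when tamoxifen was given. Sorting on tdT split the cells, each fraction gave 2 libraries, and every library mixed p21 cells of one sex with control cells of the other. The labels give the fraction, the replicate, the collection (replicates 1 and 2 are separate collections) and that each library mixes both conditions, but not the condition of each cell. It was therefore read from its sex-linked transcripts, following the mixing scheme in the study's methods. This gave 8 sums of cells (pseudobulks) per compartment: 4 p21 and 4 control, from 2 embryo pools per condition. Both fractions of a pool come from the same embryos, so the p-values below treat 8 sums from 4 pools as separate samples.

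The cell cycle is driven by cyclin-dependent kinases. At the entry to mitosis CDK1 joins B-type cyclins, condensin and topoisomerase II compact the chromosomes, and kinetochores assemble on the centromeres and capture spindle microtubules. The anaphase-promoting complex then triggers separation and the destruction of cyclin B. Most of these genes are transcribed in late S phase, G2 and mitosis and silenced in G1, through a promoter element called the cell cycle genes homology region (CHR), often beside CCAAT boxes bound by NF-Y. p21 holds cells in G1 and favours the repressor complex DREAM, which acts at the CHR. Chondrocytes of the proliferative zone are known to divide often, resting chondrocytes more slowly, and hypertrophic chondrocytes have left the cell cycle.

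The promoters of these genes are shown first because most share these 2 motifs. A RefSeq promoter (250 bases before to 50 after the start, GRCm38.p6) was matched for 34 of the 40 genes. The CHR core TTTGAA, on either strand, was in 24 of the 34 (70.6%), against 18.1% of 27025 mouse promoters of the same length. The CCAAT box was in 26 of 34 (76.5%), against 37.9% of all promoters, and both motifs were in 20 of 34 (58.8%), against 7.12%. The motifs were counted separately, also where matches share a base, and a match is a description of the letters only. Of the 32 CHR cores in 24 genes, 23 lay within 50 bases of the start, in 20 genes. The 120 bases before the start are given for 6 genes that the results return to, 5′ to 3′ on the gene's own strand, with CHR cores (TTTGAA or TTCAAA) and CCAAT boxes (CCAAT or ATTGG) in capitals.

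Cdk1 (chr10:69352913-69353032, minus strand): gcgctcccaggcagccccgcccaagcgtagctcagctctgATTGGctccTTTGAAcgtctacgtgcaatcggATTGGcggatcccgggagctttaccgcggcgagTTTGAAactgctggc

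Top2a (chr11:99024190-99024309, minus strand): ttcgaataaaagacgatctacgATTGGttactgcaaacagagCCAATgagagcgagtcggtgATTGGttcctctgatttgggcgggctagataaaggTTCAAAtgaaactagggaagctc

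Kif11 (chr19:37376262-37376381, plus strand): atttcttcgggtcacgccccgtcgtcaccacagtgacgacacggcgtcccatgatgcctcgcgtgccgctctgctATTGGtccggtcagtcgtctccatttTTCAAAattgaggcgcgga

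Cdc20 (chr4:118437344-118437463, minus strand): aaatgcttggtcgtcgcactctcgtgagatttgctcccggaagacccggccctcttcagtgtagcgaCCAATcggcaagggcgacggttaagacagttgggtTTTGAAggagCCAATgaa

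Ube2c (chr2:164769809-164769928, plus strand): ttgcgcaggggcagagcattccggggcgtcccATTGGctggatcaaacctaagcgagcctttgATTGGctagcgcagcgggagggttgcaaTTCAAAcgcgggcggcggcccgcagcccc

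Ndc80 (chr17:71526858-71526977, minus strand): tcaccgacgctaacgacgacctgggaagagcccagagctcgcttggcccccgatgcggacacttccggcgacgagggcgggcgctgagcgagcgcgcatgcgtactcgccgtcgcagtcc

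Cdk1 held 2 CHR cores, Top2a 3 CCAAT boxes and 1 CHR core, and Ndc80 neither motif in these 120 bases, although a CHR core lay 30 bases after its start.

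The 4 libraries held 18955 barcodes and 104023046 UMIs (unique molecules), and 2755 cells were kept, of which 1775 were p21 and 980 control. They formed 767 chondrocyte-like cells (492 p21, 275 control) and 1988 cells outside cartilage (1283 and 705). A chondrocyte pseudobulk held 41 to 245 cells and 880199 to 6961709 UMIs, and an outside one 59 to 540 cells and 1388598 to 12497468 UMIs. Most of the 3729 barcodes with no sex call were shallow (median 1205 UMIs), and 2747 of them were in the second tdT- library. CPM below are UMIs of a gene scaled to the TMM-adjusted library total, except sums over marker lists, over the 40 genes and in low barcodes, which are UMIs over the raw total. Among kept cells 2 barcode sequences occurred in more than 1 library, and among all barcodes 40 did. The cells outside cartilage include unnamed clusters, 4 of which carried at least 4 cartilage markers and 5 of which were nearly all p21 cells of 1 library. Cluster 12 (12 p21 and 0 control cells) carried 11 cartilage markers and cluster 19 (78 and 1 cells) carried 7. The resting chondrocyte-like cluster itself carried 4. The fits without these unnamed clusters are given where they differ, while shares of cells were not taken without them. The tag that reports the transgene is WPRE, which both the reporter and the p21 allele carry. In chondrocyte-like cells its level was 1213, 906, 1930 and 1190 in the p21 sums, and 607, 104, 508 and 62.2 in the control sums, in the order tdT+ replicate 1, tdT- replicate 1, tdT+ replicate 2 and tdT- replicate 2, which is kept for all sets of 4 values below. WPRE was higher in p21 by 2.53 ± 0.39 (log2 fold change ± SE, edgeR adjusted p = 0.0243). The endogenous Cdkn1a tag ranged from 52.9 to 78.6 CPM in p21 and from 22.4 to 104 CPM in control chondrocytes, with overlapping groups (0.26 ± 0.31, edgeR adjusted p = 0.846).

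The first comparison asked whether the mitosis genes differed between p21 and control chondrocyte-like cells. Most were lower in p21: 38 of the 40 log2 fold changes were below 0, with a median of -0.51 and a range from -1.13 to 0.25, while the median over all 11387 genes tested was 0.00. Only Ndc80, which encodes the microtubule-binding core of the outer kinetochore, fell past the adjusted threshold of 0.05 in edgeR. Across all genes 17 were called lower (0.149%) and 3 higher (0.0263%). At an unadjusted p under 0.05, 22 members were lower and 0 higher, where 6.16% of all genes were lower and 4.45% higher. In 8 members (Ndc80, Nuf2, Ckap2l, Hmmr, Kif11, Top2a, Ncapd2 and Anln) each p21 sum lay below each control sum, which was so for 3.38% of all genes, and 0 members showed the opposite (3.03% of all genes). In sums of this kind, fewer cycling cells and less RNA per cycling cell cannot be told apart.

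**Figure D1:**
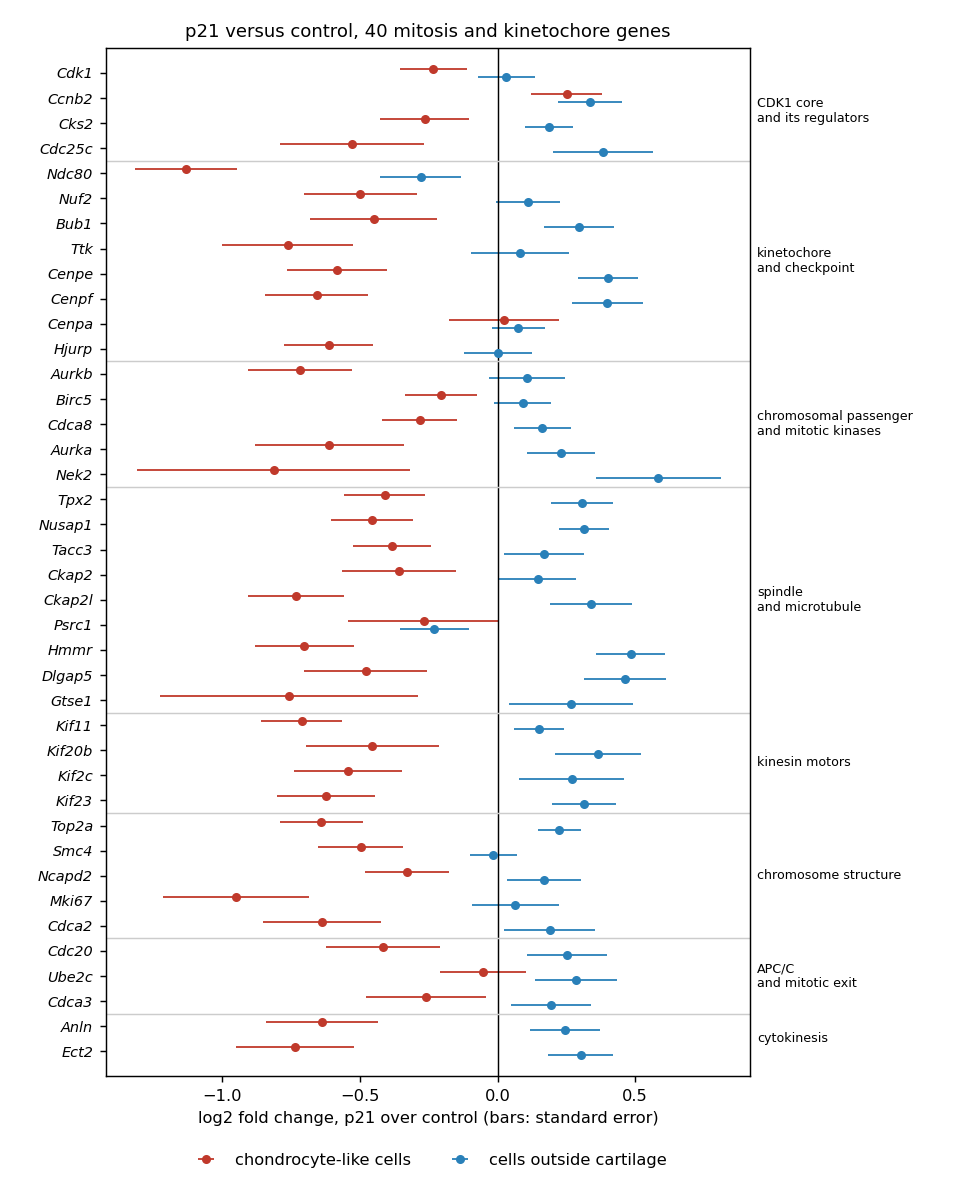
Log2 fold change of p21 over control (x axis) for each of the 40 genes (y axis, grouped by role), in chondrocyte-like cells (red) and in cells outside cartilage (blue), with bars for the standard error from edgeR. In chondrocyte-like cells 38 of 40 points lie left of 0, and in cells outside cartilage 37 of 40 lie right of it.

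Among kinetochore and checkpoint genes, Ndc80 (ENSMUSG00000024056, chr17:71496100-71526857, minus strand, GRCm38) stood at 32.7, 16, 18.6 and 14.7 CPM in p21 and at 50.4, 37.7, 47.9 and 35.4 CPM in control chondrocytes. The groups did not overlap, and the highest p21 value came from tdT+ replicate 1. The log2 fold change was -1.13 ± 0.19 (unadjusted p = 5.3e-05, edgeR adjusted p = 0.0373). The call was lost in 7 of the 8 fits that left out 1 pseudobulk, with an adjusted p from 0.0125 to 0.183 across the 8. It was kept without p21 tdT+ replicate 1, and the fold change stayed between -1.33 and -0.98. It was also lost, with 0 members called by edgeR, without TMM (adjusted p = 0.0522), without the tdT fraction as a term (0.0821) and with the fractions of each pool summed (0.257). Nuf2, the partner of Ndc80 in the same complex, had 17.6, 14.9, 12.2 and 11.1 CPM against 18.9, 18.6, 18.5 and 18.7 CPM, a narrow control group just above the p21 values (-0.50 ± 0.20, edgeR adjusted p = 0.422). Cenpf, an outer kinetochore protein, and Cenpe, the kinetochore kinesin, had log2 fold changes of -0.66 ± 0.19 and -0.58 ± 0.18. Ttk, the kinase that starts the spindle checkpoint, was at -0.76 ± 0.24, and its partner kinase Bub1 at -0.45 ± 0.23. Hjurp, the chaperone that loads CENP-A, was at -0.61 ± 0.16 (edgeR adjusted p = 0.165), whereas Cenpa itself, the centromeric histone, was at 0.02 ± 0.20 with 125.5, 116, 92.0 and 85.3 CPM against 86.1, 113, 141 and 68.2 CPM. In all, 6 of the 8 kinetochore genes were lower at an unadjusted p under 0.05.

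The CDK1 core had a median of -0.25 and the anaphase-promoting complex genes one of -0.26, and differences between roles were not tested. Cdk1, the mitotic kinase, had 129, 111, 123 and 103 CPM in p21 against 152, 151, 116 and 126 CPM in control, so the groups overlapped (-0.23 ± 0.12, edgeR adjusted p = 0.533). Ccnb2, one of its B-type cyclins, went the other way, with 68.5, 67.6, 71.2 and 65.1 CPM in p21 against 58.8, 66.5, 50.5 and 53.7 CPM (0.25 ± 0.13, edgeR adjusted p = 0.524). Cks2, a small CDK1-binding subunit, was at -0.26 ± 0.16 and Cdc25c, the phosphatase that activates CDK1, at -0.53 ± 0.26. Thus 0 of these 4 genes passed an unadjusted p under 0.05, and the same was true of the 3 genes of the anaphase-promoting complex and mitotic exit. Ube2c, the ubiquitin-conjugating enzyme of that complex, had 309, 223, 229 and 163 CPM against 212, 249, 287 and 192 CPM, a fold change of -0.05 ± 0.16. Cdc20, its coactivator, was at -0.42 ± 0.21, and Cdca3 at -0.26 ± 0.22.

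Kinesin motors, chromosome structure genes and spindle genes had medians of -0.58, -0.64 and -0.46. Kif11, the kinesin that pushes the spindle poles apart, had 48.2, 32.1, 37.6 and 38.0 CPM in p21 and 79.1, 59.3, 58.2 and 60.1 CPM in control (-0.71 ± 0.15, edgeR adjusted p = 0.0793). The other motors Kif23, Kif2c and Kif20b were at -0.62 ± 0.18, -0.54 ± 0.19 and -0.45 ± 0.24. Top2a, the topoisomerase that untangles sister chromatids, had 212, 117, 193 and 164 CPM against 355, 244, 226 and 244 CPM (-0.64 ± 0.15, edgeR adjusted p = 0.111). The groups of both Kif11 and Top2a were apart, and control tdT+ replicate 1 was the highest sample of each. Mki67, which coats mitotic chromosomes, showed 73.7, 32.1, 45.0 and 49.8 CPM against 163, 76.0, 61.4 and 92.3 CPM, with the control values spread widely (-0.95 ± 0.27, edgeR adjusted p = 0.193). The condensin genes Smc4 and Ncapd2 were at -0.50 ± 0.15 and -0.33 ± 0.15. Among spindle genes, Hmmr had 53.4, 25.2, 36.7 and 39.9 CPM against 68.6, 65.9, 55.0 and 66.8 CPM (-0.70 ± 0.18, edgeR adjusted p = 0.152). Ckap2l, a spindle-associated protein, was at 38.4, 17.2, 25.4 and 22.4 CPM against 51.8, 40.1, 40.3 and 38.5 CPM (-0.73 ± 0.18, edgeR adjusted p = 0.12).

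Tpx2, the activator of Aurora A, was at -0.41 ± 0.15 and Nusap1, a microtubule bundler, at -0.46 ± 0.15. In the passenger complex Aurkb, its kinase, had 45.6, 19.5, 31.0 and 22.8 CPM against 51.1, 50.9, 45.4 and 43.5 CPM, with p21 tdT+ replicate 1 inside the control range (-0.72 ± 0.19, edgeR adjusted p = 0.165). Its partners Birc5 (survivin) and Cdca8 (borealin) were at -0.21 ± 0.13 and -0.28 ± 0.14. Both cytokinesis genes passed an unadjusted p under 0.05: Anln, the contractile ring scaffold, at -0.64 ± 0.20 (edgeR adjusted p = 0.258) and Ect2, which activates RhoA at the furrow, at -0.74 ± 0.21 (edgeR adjusted p = 0.207). Of the members not yet named, Aurka, the centrosomal Aurora kinase, was at -0.61 ± 0.27, and Nek2, which separates the centrosomes, at -0.81 ± 0.50. The spindle genes Tacc3, Ckap2, Psrc1, Dlgap5 and Gtse1 were at -0.38 ± 0.14, -0.36 ± 0.21, -0.27 ± 0.27, -0.48 ± 0.22 and -0.76 ± 0.47. Cdca2, which recruits a phosphatase to chromosomes at mitotic exit, was at -0.64 ± 0.21. By role, the genes past an unadjusted p under 0.05 were thus 2 of 5 passenger and kinase genes, 5 of 9 spindle genes, 3 of 4 kinesins and 4 of 5 chromosome structure genes.

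**Figure D2:**
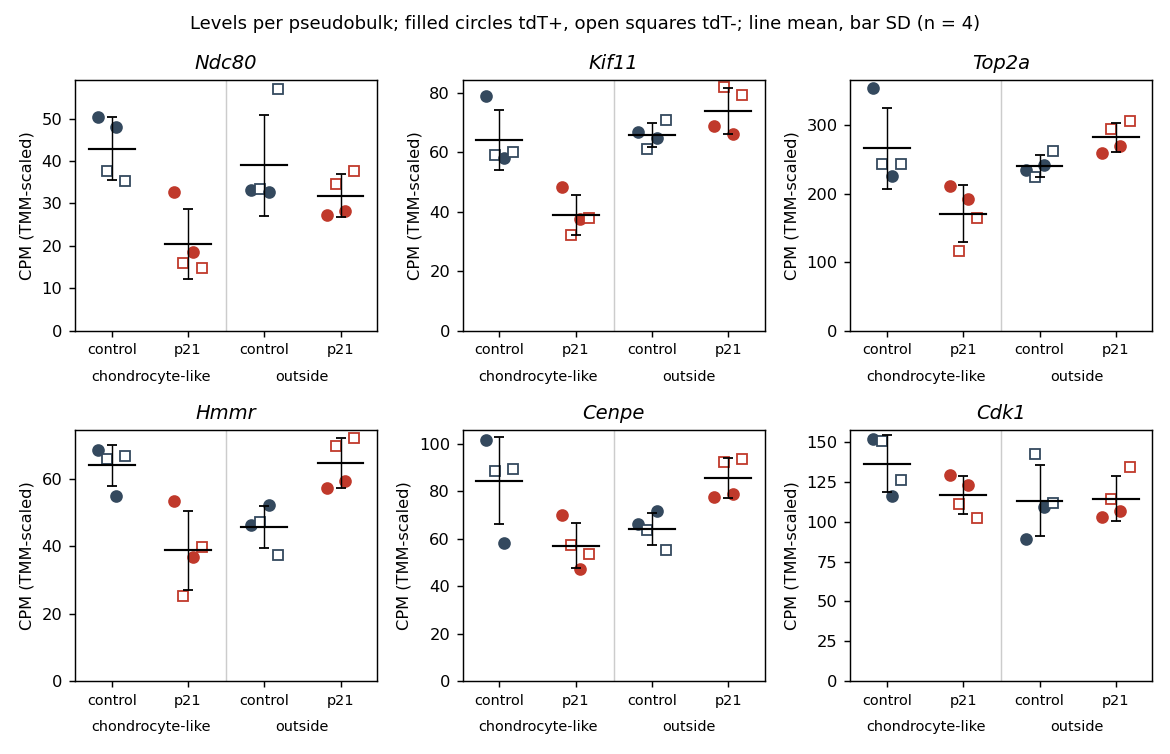
CPM (y axis, TMM-scaled, from 0) of 6 genes in each pseudobulk, for control and p21 sums of chondrocyte-like cells and of cells outside cartilage (x axis). Filled circles are tdT+ sums, open squares tdT- sums, the line is the mean and the bar the SD (n = 4). Ndc80, Kif11, Top2a and Hmmr have p21 and control chondrocyte groups that do not overlap, while those of Cdk1 do.

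The same direction was seen inside each library, where p21 and control cells were prepared and sequenced together. In chondrocyte-like cells 29, 38, 37 and 37 of the 40 genes were lower in p21 in the 4 libraries, with medians of -0.26, -0.76, -0.38 and -0.53. The difference was therefore smallest in tdT+ replicate 1 and largest in tdT- replicate 1, whose p21 sum had the fewest cells (41). The genes most often used beside the 40 were similar in size: Plk1, the polo-like kinase, was at -0.72 ± 0.20 (edgeR adjusted p = 0.178), Ccnb1 at -0.36 ± 0.17 and Foxm1, a transcription factor for G2 genes, at -0.63 ± 0.28. Of 84 other mitosis genes tested, 0 were called by edgeR after adjustment, 41 were lower and 0 higher at an unadjusted p under 0.05, and the median was -0.46. Of 55 S phase genes, 0 were called, 11 were lower and 1 higher, with a median of -0.12. Of 24 CDK inhibitors and G1 regulators, 0 were called and 5 were lower.

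The makeup of the chondrocyte sums also moved. Resting chondrocyte-like cells were 24.7 to 43.9% of p21 and 13.1 to 29.8% of control chondrocytes, and proliferative chondrocyte-like cells 36.6 to 53.2% and 48.2 to 56.8%. The cartilage markers used for naming summed to 17195 to 21527 CPM in p21 and 19733 to 23933 CPM in control chondrocytes. Endothelial markers summed to 152 to 231 CPM in p21 and 92.8 to 194 CPM in control chondrocytes. Cluster 17, of 91 cells, was counted with the chondrocytes for its hypertrophic markers, but endothelial genes (Cdh5, Plvap, Aplnr and Cd93) stood beside Col10a1 and Spp1 among its leading genes, so it is given no cell type name here. Without this cluster, a choice made after seeing the data, the median was -0.56, and Ndc80 was again the 1 member called by edgeR (adjusted p = 0.0248), where 0.208% of all genes were called lower. At an unadjusted p under 0.05, 30 members were then lower and 0 higher. The share of all genes at an unadjusted p was not taken in this fit, so that count was not set against the 22 of the main fit. The part of the other shifts in the result was not tested, but each zone was fitted on its own.

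In proliferative chondrocyte-like cells (clusters named by their markers, with thresholds set after the clusters were seen) 39 of the genes could be tested. The sums held 15 to 110 cells. The smallest, p21 tdT- replicate 1, held 396211 UMIs of all genes, so low CPM there rest on few counts. In the main fit the differences were larger in this zone: 37 of 39 fold changes were below 0, with a median of -0.997 against 0.00 for all 9721 genes. Ndc80 fell again (-1.65 ± 0.28, unadjusted p = 5.3e-05, edgeR adjusted p = 0.0328), from 63.9, 39.3, 27.6 and 44.6 CPM in control to 17.8, 15.6, 11 and 14.1 CPM in p21. It was the 1 member called, where 0.288% of all genes were called lower, and 27 members were lower at an unadjusted p under 0.05, where 5.77% of all genes were lower and 4.24% higher. Top2a had 151, 150, 142 and 138 CPM in p21 and 503, 284, 181 and 319 CPM in control (-1.16 ± 0.24, edgeR adjusted p = 0.0656). The p21 values of Top2a were nearly equal and the control values spread, with the highest in tdT+ replicate 1 as before. Hjurp was at -1.03 ± 0.21 (edgeR adjusted p = 0.0565) and Hmmr at -1.26 ± 0.28 (edgeR adjusted p = 0.0857). Kif23, the central spindle motor, was at -1.28 ± 0.29 and Kif11 at -1.17 ± 0.27 (edgeR adjusted p = 0.0925 for each). Cdk1 was at -0.49 ± 0.25 and Ccnb2 at 0.10 ± 0.31. The 4 genes of the CDK1 core had a median of -0.53, with 2 lower at an unadjusted p under 0.05. The groups were apart in 7 members, where 3.17% of all genes were lower without overlap. The S phase gene Gmnn (geminin, the licensing inhibitor) was called lower (-0.87 ± 0.16, edgeR adjusted p = 0.0441).

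These proliferative values changed where barcodes were filtered otherwise and clustered again, and the cause was not tested. With barcodes from 3000 UMIs, the median was -0.29 and 0 members were called by edgeR, and with a stricter sex call it was -0.42, again with 0 called. The median in all chondrocyte-like cells was -0.74 to -0.47 over the alternatives, so the larger difference in this zone was not kept under these 2 settings. At a clustering resolution of 2, 0 members were called as well. The Ndc80 call in this zone was also lost in 7 of the 8 fits that left out 1 pseudobulk (edgeR adjusted p from 0.00676 to 0.16). Without control tdT+ replicate 2 it was kept and 17 members were called lower by edgeR, of 86 genes in all (0.831%).

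In resting chondrocyte-like cells 35 of the genes could be tested (Nuf2, Ttk, Nek2, Gtse1 and Anln had too few counts). The median was -0.48 and 32 of 35 fold changes were below 0. edgeR called 0 of all 6323 genes (0%), and only Ndc80 was lower at an unadjusted p under 0.05 (-0.95 ± 0.36, edgeR adjusted p = 0.662), where 4.67% of all genes were lower, 2.69% higher and 7.35% either. DESeq2 and limma-voom also called 0 members, with 1 lower at an unadjusted p in each. Over the 12 alternatives run here the median ranged from -0.90 to -0.06, and the members lower at an unadjusted p from 0 to 29. Ndc80 stood at 68.1, 5.94, 34.7 and 17.7 CPM in p21 and at 50.01, 50.8, 89.3 and 37.5 CPM in control, so the groups overlapped. The p21 tdT- replicate 1 sum was the lowest of the 8 sums for 31 of the 35 members, for instance 2.97 CPM for Kif11 against 35.5 to 68.1 CPM in the other p21 sums. That sum held 18 cells and 352458 UMIs of all genes, so its low CPM rest on few counts. The resting sums held 11 to 76 cells. Tpx2, Aurka, Hmmr and Kif11 were at -0.65 ± 0.36, -0.80 ± 0.42, -0.73 ± 0.37 and -0.73 ± 0.37.

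In the cells counted as outside cartilage, the same genes leaned the other way. Col2a1-rtTA is not meant to be active outside cartilage, but these cells include clusters 12 and 19, with 11 and 7 cartilage markers. Of 40 fold changes 37 were above 0, with a median of 0.23 and a range from -0.28 to 0.58, against a median of -0.01 over 14179 genes. edgeR called 0 members, where 0.00705% of all genes (1 gene) were called, and 14 members were higher and 0 lower at an unadjusted p under 0.05, where 3.62% of all genes were higher, 2.25% lower and 5.87% either. DESeq2 and limma-voom also called 0, with 11 and 12 higher at an unadjusted p, where the share of all genes was not taken. In 6 members (Cenpe, Nusap1, Hmmr, Dlgap5, Kif23 and Ect2) each p21 sum lay above each control sum, which was so for 1.47% of all genes. Markers of some other cell types moved with the condition. The 7 muscle markers summed to 48.9, 537, 74.2 and 365 CPM in p21 and to 21.7, 5.78, 26.5 and 139 CPM in control, and the 4 pericyte markers to 55.9, 108, 54.8 and 167 CPM in p21 and to 39.7, 33.0, 37.4 and 64.2 CPM in control. Both sums were higher in p21 in each of the 4 libraries, while the ranges overlapped. The muscle-like cluster held only 1, 1, 2 and 25 p21 cells in the 4 libraries, and 2 control cells in all. Erythroid and immune markers reached higher in control (up to 61.9 and 145 CPM) than in p21 (up to 22.5 and 40.6 CPM). Without the muscle-like cluster, a choice made after seeing the data, the median was 0.22, with 13 members higher and 0 lower at an unadjusted p under 0.05 and 0 called by edgeR (0% of all genes). The share of all genes at an unadjusted p was not taken in that fit. The part of the pericyte markers was not tested. WPRE outside cartilage was 544, 64.7, 652 and 370 CPM in p21 and 471, 94.0, 389.5 and 68.2 CPM in control, so the second p21 tdT- sum held more of it than the other tdT- sums (0.96 ± 0.40, edgeR adjusted p = 0.809).

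Hmmr, the hyaluronan-mediated motility receptor that also binds spindle microtubules, had 57.5, 69.8, 59.4 and 72.2 CPM in p21 and 46.4, 47.2, 52.3 and 37.4 CPM in control (0.48 ± 0.12, edgeR adjusted p = 0.68). Cenpe had 77.6, 92.1, 78.9 and 93.4 CPM against 66.2, 63.7, 71.6 and 55.2 CPM (0.40 ± 0.11, edgeR adjusted p = 0.68). For both genes the p21 tdT- sums were the highest. Cenpf was at 0.40 ± 0.13, Dlgap5, which stabilises kinetochore fibres, at 0.46 ± 0.15, Nusap1 at 0.31 ± 0.09, Kif23 at 0.31 ± 0.12, Ccnb2 at 0.33 ± 0.12 and Top2a at 0.22 ± 0.08. Cdk1 was flat, with 103, 114, 107 and 134 CPM against 89.1, 143, 109 and 112 CPM (0.03 ± 0.10, edgeR adjusted p = 0.998). Ndc80 was the lowest of the 40 here as well, at 27.3, 34.5, 28.1 and 37.5 CPM against 33.1, 33.4, 32.6 and 56.9 CPM (-0.28 ± 0.15, edgeR adjusted p = 0.896), and Nuf2, Aurkb, Birc5, Tpx2 and Kif11 were at 0.11 ± 0.12, 0.11 ± 0.14, 0.09 ± 0.10, 0.31 ± 0.11 and 0.15 ± 0.09. Within libraries 32, 25, 27 and 38 of the 40 genes were higher in p21. The S phase genes leaned down: 51 of 55 were below 0, with a median of -0.15 and 8 lower at an unadjusted p under 0.05, while 84 other mitosis genes had a median of 0.08. With the outside cells limited to the 1336 cells of clusters that hold few cartilage markers and are not nearly all of 1 library, a choice made after seeing the data, the median was 0.19 and 0 members passed even the unadjusted p in edgeR.

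The difference between the compartments was tested directly as the interaction of condition and compartment over 16 sums, which come from the same embryos and the same p21 and control cells as both comparisons above. All 40 interaction values were below 0, with a median of -0.81 and a range from -1.35 to -0.04, against a median of 0.01 over 14443 genes. edgeR called 0 members and 0 genes in all (0%), and 30 members were lower at an unadjusted p under 0.05, where 4.1% of all genes were lower, 2.58% higher and 6.67% either. DESeq2 called 2 members lower, Hmmr and Cenpf, where 0.104% of all genes were called lower, and limma-voom 0. The lowest p belonged to Hmmr (-1.20 ± 0.23, unadjusted p = 0.00017, edgeR adjusted p = 0.193), Kif11 (-0.85 ± 0.18, edgeR adjusted p = 0.203), Cenpf (-1.05 ± 0.22, edgeR adjusted p = 0.203), Cenpe (-0.99 ± 0.22, edgeR adjusted p = 0.271) and Kif23 (-0.94 ± 0.22, edgeR adjusted p = 0.28). The values nearest to 0 were those of Cenpa (-0.04 ± 0.21), Psrc1 (-0.04 ± 0.28) and Ccnb2 (-0.09 ± 0.16). The S phase genes had a median of 0.03 in the same test.

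Counting cells rather than transcripts gave another view. Each cell was thinned to 5000 UMIs, which 2527 cells reached (159 p21 and 69 control cells were too shallow), and the share of cells with at least 5 of the 40 genes was taken. In chondrocyte-like cells this share was 28.8, 25.6, 29.3 and 30.3% in p21 and 29.8, 35.5, 29.1 and 29.6% in control, so the groups overlapped, and the difference was -2.47 ± 4.99 percentage points (SD over 4 libraries). Outside cartilage it was 26.0, 37.9, 33.7 and 41.2% against 33.3, 49.3, 27.9 and 38.3% (-2.53 ± 8.14 points). The outside cells include the 5 clusters that were nearly all p21 cells of 1 library (clusters 12, 13, 19, 20 and 21). In these, 100, 15.4, 100, 87.5 and 18.75% of cells passed the cut. Neither the outside shares nor the outside UMIs per positive cell were taken without them. The 40 genes summed to 35.4, 18.4, 26.4 and 26.2 UMIs per positive chondrocyte in p21 and 35.6, 26.7, 34.6 and 28.8 UMIs in control, lower in p21 in 4 of 4 libraries (-4.80 ± 4.09 UMIs). Outside cartilage that value was higher in p21 in 3 of 4 libraries (4.58 ± 4.5 UMIs). Over the 10 alternatives run here the difference in shares ranged from -6.78 to 2.47 points in chondrocyte-like cells and from -4.06 to 2.47 points outside, so its sign was not kept. Unthinned, the shares were 61.0 to 86.5%. In cluster 17, 30 of 74 cells (40.5%, exact binomial 95% interval 29.3 to 52.6) passed the same cut, and among osteoprogenitor-like cells 34 of 213 (15.96%, 11.3 to 21.6). Both counts pool the cells of all libraries and both conditions. By library and condition the share ran from 0 to 80% in cluster 17 and from 0 to 42.3% in osteoprogenitor-like cells, where several groups held few cells. No cell type known to lack these genes was found here, so a background share could not be set, and the shares were not read as shares of dividing cells. Barcodes under 1000 UMIs held the 40 genes at 2426 to 2620 CPM, much as kept cells did (2498 to 2615 CPM). Intervals cover counting error only.

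**Figure D3:**
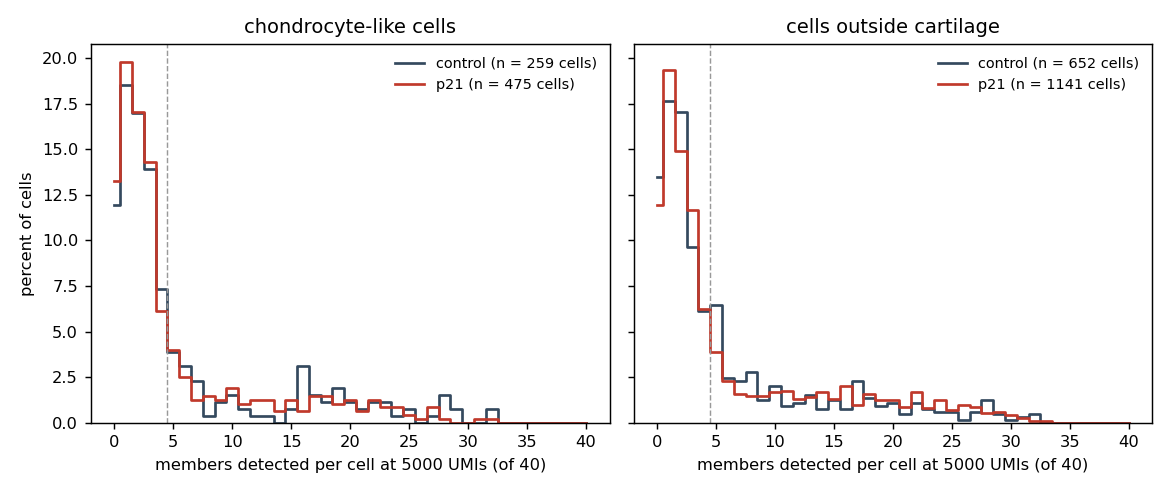
Percent of cells (y axis) by the number of the 40 genes detected per cell after thinning to 5000 UMIs (x axis), for control (grey) and p21 (red) cells in each compartment, with the dashed line at the cut of 5 genes. Both conditions have most cells below the cut and a long tail that reaches 32 or 33 genes. Cells are pooled over the 4 libraries.

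The distribution over cells was skewed in both conditions. The percentages here pool the cells of the 4 libraries within each condition, so they carry no spread between libraries and were not tested. Libraries weighed differently by condition: outside cartilage, tdT- replicate 2 gave 495 of 1141 p21 cells and 120 of 652 control cells. No member was detected in 13.3% of p21 and 12.0% of control chondrocyte-like cells, and at least 20 members in 6.95% and 8.88%. Outside cartilage at least 20 members were found in 10.3% of p21 and 7.98% of control cells. Near the cut, 29 p21 and 19 control chondrocytes had 4 members, and 19 and 10 had 5.

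Across cell types, the summed level of the 40 genes (CPM of the raw total) was taken in samples of at least 10 cells, and the order of the types differed between the conditions. In control samples the medians were 1784 CPM in cluster 17, 1875 CPM in perichondrium or groove-like, 2200 CPM in tenocyte-like (1 sample), 2667 CPM in interzone or articular-like, 2999 CPM in proliferative-like, 3303 CPM in resting-like and 3489 CPM in osteoprogenitor-like cells. In p21 samples they were 827 CPM in osteoprogenitor-like, 1506 CPM in proliferative-like, 1796 CPM in cluster 17, 2901 CPM in resting-like, 3324 CPM in tenocyte-like, 3578 CPM in perichondrium or groove-like and 4881 CPM in interzone or articular-like cells. Osteoprogenitor-like cells were thus the lowest type in p21 (379 to 981 CPM, 3 samples) and the highest in control (1874 and 5103 CPM, 2 samples). The samples with enough cells differed between conditions, so these orders mix condition with fraction and replicate. The control osteoprogenitor-like samples were both tdT+, while p21 added tdT- replicate 2. In tdT- replicate 1, below the cell limit, these cells went the other way (2857 CPM in 8 p21 cells, 196 CPM in 5 control cells). The other libraries had p21 below control. The chondrocyte-like cluster of no zone was at 2413 CPM in control and 2403 CPM in p21, and muscle-like cells at 2675 CPM (1 p21 sample). Neighbours in these orders overlapped, except osteoprogenitor-like and proliferative-like cells in p21, and resting chondrocyte-like cells alone ran from 465 to 5460 CPM, so these orders are a description only. The clustering left out 681 genes: the members, the gene lists, histone and sex-linked genes, the transgenes, Gli1 and genes that tracked the cell cycle. Among all chondrocyte-like cells the sum was 1772 to 2790 CPM in p21 and 2424 to 3197 CPM in control, and outside cartilage 2640 to 2981 CPM and 2300 to 2556 CPM, where the groups did not overlap. In proliferative-like cells the p21 sums were 1418 to 2304 CPM and the control sums 1249 to 3826 CPM, the lowest control sum being below the p21 range.

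**Figure D4:**
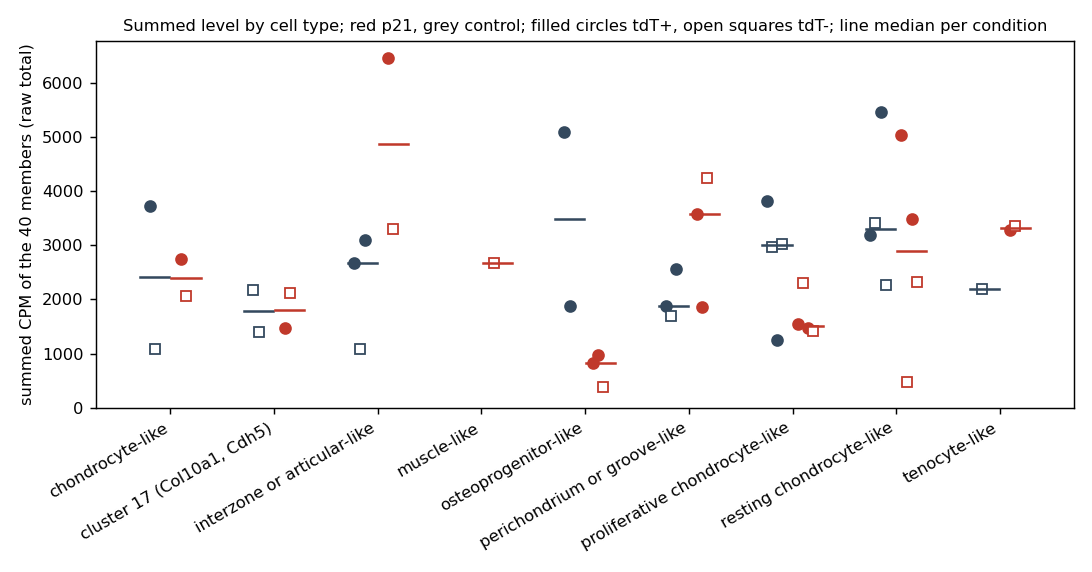
Summed CPM of the 40 genes (y axis, from 0) by cell type (x axis, in alphabetical order), for each sample of at least 10 cells: red p21, grey control, filled circles tdT+, open squares tdT-, and a line at the median of each condition. The order differs by condition: the osteoprogenitor-like median is the lowest of the p21 samples (827 CPM) and the highest of the control samples (3489 CPM).

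Last, the descendants of Gli1-expressing cells (tdT+) were compared with the remaining cells (tdT-), over both conditions. Each library held a single fraction, with 2 libraries per fraction, so effects of fraction and of library cannot be told apart. The p21 and control sums of a library share a reaction, yet the p-values treat them as separate samples. In chondrocyte-like cells 36 of 40 genes were higher in tdT+, with a median of 0.23, which was -0.0243 with barcodes from 3000 UMIs and 0.0431 with the strict sex call. edgeR called 0 members, where 0.0176% of all genes were called (0.00878% higher and 0.00878% lower), and 7 members were higher and 0 lower at an unadjusted p under 0.05, where 1.77% of all genes were higher, 1.61% lower and 3.37% either. DESeq2 and limma-voom called 0, with 6 and 7 higher at an unadjusted p, where the share of all genes was not taken. The lowest p was that of Ndc80 (0.55 ± 0.18, unadjusted p = 0.011, edgeR adjusted p = 1.00), which was the highest in the tdT+ replicate 1 sums of both conditions. Nusap1 was at 0.37 ± 0.15, Top2a at 0.37 ± 0.15, Bub1 at 0.55 ± 0.23 and Cdca3 at 0.51 ± 0.22, while Ttk was at -0.36 ± 0.24. No member had all tdT+ sums above or all below the tdT- sums, where 0.966% of all genes were higher and 0.905% lower without overlap. The p21 effect itself, compared between the fractions of chondrocyte-like cells, had a median interaction of 0.27, with 37 of 40 above 0 and 0 of 11880 genes called by edgeR (0%). The sign of this median was not kept: it was -0.28 with barcodes from 3000 UMIs, -0.18 with the strict sex call and -0.0741 at a clustering resolution of 2. Among members Aurkb alone passed the unadjusted p, where 2.42% of all genes were higher, 1.51% lower and 3.93% either (0.73 ± 0.33, unadjusted p = 0.0485, edgeR adjusted p = 1.00), and DESeq2 and limma-voom gave 0 and 1 at an unadjusted p.

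Outside cartilage the fractions differed in 185 genes (1.3%, with 0.705% lower and 0.599% higher in tdT+), but in 0 members after adjustment in edgeR, DESeq2 or limma-voom. Of the 40, 26 were lower in tdT+, with a median of -0.05, and 3 were lower at an unadjusted p under 0.05, where 7.86% of all genes were lower, 6.78% higher and 14.6% either: Cdk1 (-0.31 ± 0.10, edgeR adjusted p = 0.199), Ndc80 (-0.43 ± 0.15, edgeR adjusted p = 0.205) and Aurkb (-0.34 ± 0.14, edgeR adjusted p = 0.291). Cdk1 had 103, 107, 89.1 and 109 CPM in the tdT+ sums and 114, 134, 143 and 112 CPM in the tdT- sums, which did not overlap (3.79% of all genes were lower without overlap). Ndc80 had 27.3, 28.1, 33.1 and 32.6 CPM in tdT+ and 34.5, 37.5, 33.4 and 56.9 CPM in tdT- (both lists with p21 before control), so these groups were apart by little. Without control tdT- replicate 1, Ndc80 was called lower (-0.56, edgeR adjusted p = 0.0461), and without control tdT- replicate 2 its value was -0.25. With only the clusters clear of cartilage markers, 0 members passed the unadjusted p in edgeR.

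**Figure D5:**
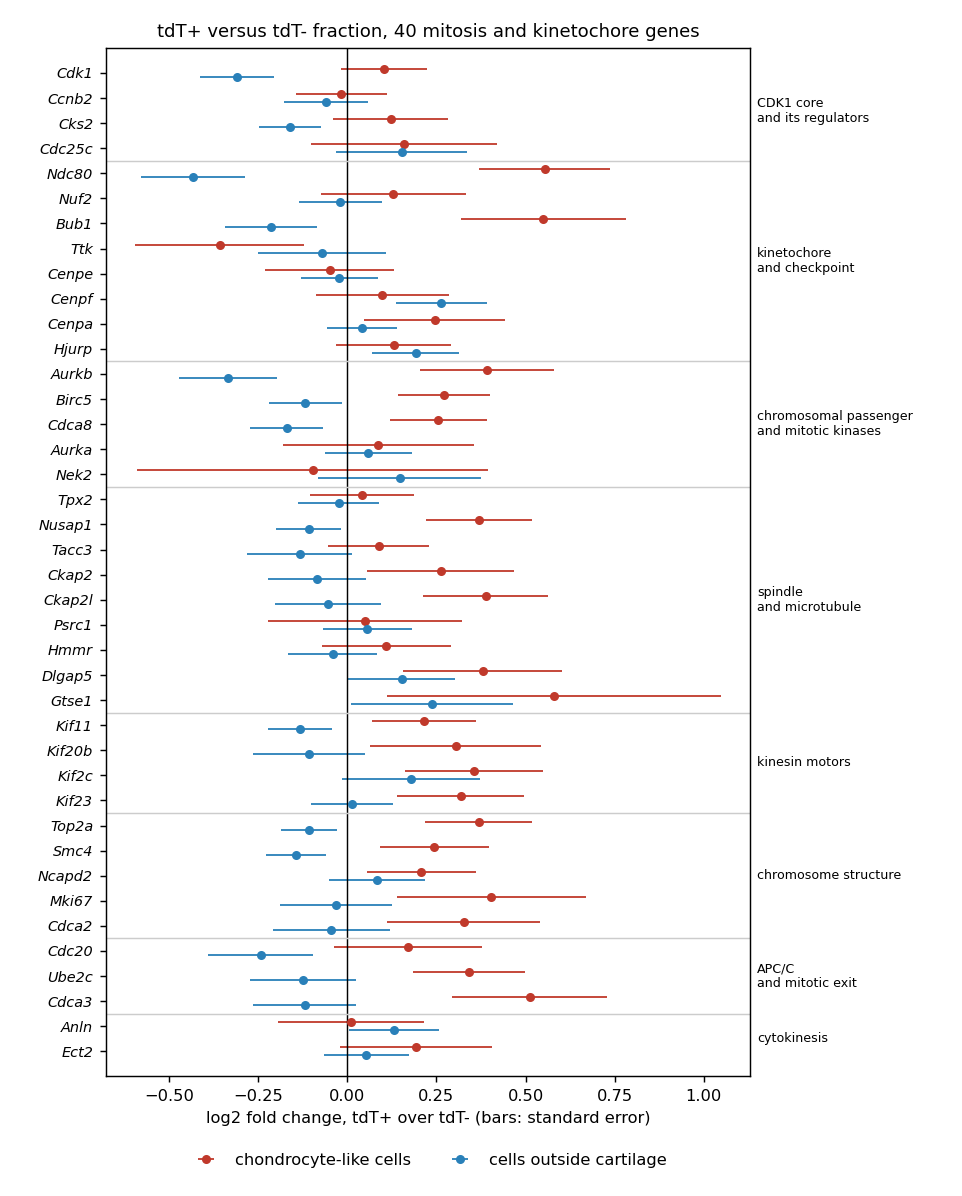
Log2 fold change of tdT+ over tdT- (x axis) for each of the 40 genes (y axis, grouped by role), in chondrocyte-like cells (red) and in cells outside cartilage (blue), with bars for the standard error from edgeR. In chondrocyte-like cells 36 of 40 points lie right of 0, and in cells outside cartilage 26 of 40 lie left of it.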

How the data were processed

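Cells of E14.5 hindlimbs were profiled with 10x 3′ chemistry in 4 libraries. The authors aligned reads with Cell Ranger 7.2.0 to GRCm38 with transgene sequences added, and deposited raw counts of UMIs per gene and barcode. The study's methods also name steps against ambient RNA, doublets and low counts, and barcodes under 1000 UMIs were still present in the deposited counts.

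Barcodes under 1000 UMIs or 500 genes, or over 10% mitochondrial, were dropped (6873 passed). Sex came from Xist against 4 Y-linked genes, with at least 2 UMIs and 80% on one side. Cells with both (277), no call (3729) or the top 5% of Scrublet scores per library (159) were left out, since Scrublet's own threshold marked 1, 1, 4 and 0 cells. The methods give 2 experimental males, 2 control males, 2 control females and 1 experimental female, while the study's text gives 2 to 3 embryos per pool, so the p21 pool of replicate 2 may be 1 embryo. Cells were clustered with scanpy 1.11.5 and leidenalg 0.10.2 (30 components, 15 neighbours, resolution 1) into 21 clusters, 11 of them unnamed (1313 cells). Unnamed clusters count as outside cartilage. Of these, 4 (clusters 12, 16, 19 and 21) carried 11, 4, 7 and 4 of 11 cartilage markers. Another overlapping set of 5 (clusters 12, 13, 19, 20 and 21) were nearly all p21 cells of 1 library. Cluster 17, with hypertrophic and endothelial genes, was counted with the chondrocytes.

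Counts were summed per library, condition and compartment and tested with edgeR 4.0.16 (filterByExpr, TMM, quasi-likelihood, Benjamini-Hochberg over all genes, adjusted p of 0.05) with tdT fraction or condition as covariate, and DESeq2 1.42.0 and limma 3.58.1 as alternatives. Shares of all genes at an unadjusted p were taken for the main edgeR fits only, so such counts from other fits have no share beside them. The scripts were tested on simulated data. UMIs of 3′ tags are not scaled by length, so levels were not compared between genes. The tdT+ and tdT- sums of a pool are paired by embryo: their deviations correlated at 0.187 and 0.133 in chondrocytes and 0.215 and 0.113 outside. No source says whether pools came from separate litters, and p-values measure the spread between these sums.

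The members and gene lists were chosen with earlier results of these data known. Fold changes are given for members with the lowest p in each comparison and, for p21 in chondrocyte-like cells, for 13 leading members of the roles. Levels per sum are given for some of them. Outside cartilage the main p21 fold changes of the leading members Mki67, Cdc20, Ube2c and Anln are not given. Promoters came from RefSeq.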

Additional observations from a re-analysis of the deposited data

Results flagged for a closer look

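In 78 groups of 4 samples, 5 had a sample far from the other 3 by Dixon's criterion at 95%, and chance gives about 1 in 20. In control chondrocyte-like cells, tdT+ replicate 1 stood above the other 3 for Ckap2l (51.8 CPM against 38.5 to 40.3 CPM), Kif11 (79.1 CPM against 58.2 to 60.1 CPM) and Top2a (355.0 CPM against 226 to 244 CPM). Outside cartilage, control tdT- replicate 2 stood above the others for Ndc80 (56.9 CPM against 32.6 to 33.4 CPM). The share of chondrocyte-like cells with at least 5 of the 40 genes was 35.5% in control tdT- replicate 1, against 29.1 to 29.8% in the other control sums.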

How the results depend on the processing

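The p21 medians kept their sign in every alternative run: -0.74 to -0.47 in chondrocyte-like cells, 0.19 to 0.28 outside and -0.96 to -0.72 for the interaction with compartment. The number of members called lower in chondrocyte-like cells was 4 of 88 genes called lower in all in DESeq2 (Ndc80, Kif11, Top2a and Mki67), 13 of 290 without the filter on low counts, 3 of 46 at Leiden resolution 2, and 0 without TMM (of 16), without the tdT fraction (of 20) or with the fractions of a pool summed (of 6), and the median was -0.74 at resolution 0.5. With the library as a replicate block in place of the fraction it was 2 of 34, and 2 of 23 in proliferative-like cells; a block on the embryo pool changed no call of a member. In proliferative-like cells it was 7 of 78 in DESeq2, 3 of 37 in limma-voom, 23 of 248 without the filter, 4 of 28 with fractions summed, and 0 without TMM (of 11), with barcodes from 3000 UMIs (of 5), a strict sex call (of 6) or resolution 2 (of 6), and the medians were -0.29 and -0.42 with 3000 UMIs and the strict sex call. This comparison gave no value without Scrublet removal or at resolution 0.5, where no such cluster was named. In resting-like cells 1 member was called of 16 genes lower with 3000 UMIs and 1 of 11 with the strict sex call. Without the filter, 3 members were called of 202 genes higher outside, 15 of 148 lower in the interaction with compartment (2 of 15 in DESeq2) and 1 of 744 lower in tdT+ outside. The tdT+ median in chondrocyte-like cells was -0.0243 with 3000 UMIs and 0.0431 with the strict sex call; outside it was 0.20 in connective tissue clusters and 0.0876 in clusters clear of cartilage markers. The fraction interaction median was -0.28, -0.18 and -0.0741 with 3000 UMIs, the strict sex call and resolution 2. The cause of these changes was not tested.

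Leaving out 1 pseudobulk gave 0 to 2 members called lower in chondrocyte-like cells, of 1 to 26 genes (median -0.63 to -0.46), 0 to 17 in proliferative-like (-1.20 to -0.69; 17 of 86 genes without control tdT+ replicate 2 and 0 in each of the others), 0 in resting-like (-0.72 to -0.16), 0 to 1 in the compartment interaction (-0.95 to -0.60) and 0 to 1 in tdT+ outside (-0.12 to 0.03). The medians were 0.17 to 0.26 for p21 outside, 0.12 to 0.33 for tdT+ chondrocytes and 0.0834 to 0.49 for the fraction interaction, and the share differences -3.11 to -0.96 and -5.63 to 1.49 points. Genes near 0, none of them called, changed sign: in chondrocyte-like cells Ube2c with 3000 UMIs (0.10), strict sex call (0.14), resolution 2 (0.00807), fractions summed (0.0368) and left-out pseudobulks (-0.174 to 0.0712); outside Mki67 with 3000 UMIs (-0.0400), in connective tissue (-0.31) and in clear clusters (-0.0238), and Kif11 in connective tissue (-0.0876); in tdT+ outside Cks2 (0.0646 in connective tissue, 0.0622 in clear clusters); in the fraction interaction Birc5 with the strict sex call (-0.0226) and resolution 2 (-0.0377), and Aurka at resolution 2 (-0.10); in resting-like cells Hmmr (0.16) and Tpx2 (0.28) at resolution 2. With pseudobulks left out, Cdk1 (-0.0381 to 0.116), Mki67 (-0.0808 to 0.187), Birc5 (-0.00441 to 0.1597) and Aurkb (-0.00304 to 0.226) did so outside.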

Other observations

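Within resting chondrocyte-like cells, 4 of 35 members (Cenpa, Top2a, Ncapd2 and Ect2) had each tdT+ sum above each tdT- sum, which was so for 1.63% of all genes, and this was not tested further. Top2a there had 289, 271, 256 and 352 CPM in the tdT+ sums and 11.9, 194, 251 and 103 CPM in the tdT- sums, with p21 before control in each. Cenpa, the centromeric histone, had 296, 214, 175 and 439 CPM against 41.6, 173, 167 and 98.5 CPM. Cdkn1a had the opposite order in the same cells, as did 1.63% of all genes without overlap. It had 4.69, 15.8, 19.4 and 10.5 CPM in the tdT+ sums and 41.6, 31.0, 32.9 and 32.8 CPM in the tdT- sums, from 73 UMIs in p21 and 29 in control. The p21 tdT+ replicate 1 sum held 454394 UMIs of all genes, so its 4.69 CPM rest on few counts, and this order was not tested.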
